A study of Mus musculus with 24 samples.

Results

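Calcineurin is a phosphatase that is switched on by calcium and calmodulin, and 10 genes of its signaling route were followed here through bulk RNA sequencing (RNA-seq) of light-exercised muscle. They were chosen by name from the 56941 genes in the deposited tables: Ppp3ca and Ppp3cb, catalytic subunits of calcineurin; Ppp3r1, its calcium-binding regulatory subunit; Nfatc1, Nfatc2, Nfatc3, and Nfatc4, the NFAT transcription factors that calcineurin dephosphorylates; and Rcan1, Rcan2, and Rcan3, which encode regulators that bind calcineurin and can inhibit it. Of the 10 genes, 9 were abundant enough to be tested, among 13318 genes tested in all, and Nfatc2 was not.

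In muscle, each contraction is started by a rise in cytosolic calcium. Calcium bound to calmodulin and to the regulatory subunit activates calcineurin, which removes phosphates from NFAT proteins so that they enter the nucleus, and kinases such as Dyrk1a and GSK3 put the phosphates back. The route is known for its part in slow fiber gene programs, myotube growth, and fusion, and NFAT induces Nfatc1 itself and a short form of Rcan1, so that both the signal and its brake are regulated at the level of transcription.

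The tissues were monolayers of C2C12, an established line of mouse myoblasts whose cells join into multinucleated fibers when serum is changed. All tissues, control included, came from 1 engineered line that expressed ChR2(H134R), a blue light-gated cation channel, fused to tdTomato (genotype ChR2::tdTomato), and all were differentiated on grooved fibrin gels in medium with horse serum and insulin-like growth factor 1. Light was given for 30 min each day at 1, 4, or 10 Hz from the first day in differentiation medium, and the control received no light, although its fibers could still twitch on their own. RNA was extracted at the end of these repeated daily sessions, and the time since the last session is not given in the methods. Each of the 4 conditions comprised 6 libraries described by the study as biological replicates, giving 24 libraries. The fibers of this model lack nerve, vessels, and the other cells of a muscle, and with bulk RNA fewer fibers and less RNA per fiber cannot be told apart.

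Promoter windows of Rcan1 and Rcan2 are shown first because Rcan1 is the textbook NFAT target of the 10 genes, with an internal start known for its NFAT sites and a distal start that lacks this known response. The sequences are the 250 bases before each start as annotated by RefSeq on GRCm38.p6, 5′ to 3′ on the strand of the gene, with each match to the NFAT core letters GGAAA or its reverse complement TTTCC in capitals.

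Rcan1, internal start, chr16:92400079-92400328, minus strand: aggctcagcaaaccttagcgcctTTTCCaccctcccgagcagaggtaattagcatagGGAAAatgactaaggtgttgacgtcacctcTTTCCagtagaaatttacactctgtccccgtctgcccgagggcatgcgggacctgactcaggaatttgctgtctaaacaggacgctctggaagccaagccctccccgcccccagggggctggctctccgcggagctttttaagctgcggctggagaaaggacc

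Rcan1, distal start, chr16:92466170-92466419, minus strand: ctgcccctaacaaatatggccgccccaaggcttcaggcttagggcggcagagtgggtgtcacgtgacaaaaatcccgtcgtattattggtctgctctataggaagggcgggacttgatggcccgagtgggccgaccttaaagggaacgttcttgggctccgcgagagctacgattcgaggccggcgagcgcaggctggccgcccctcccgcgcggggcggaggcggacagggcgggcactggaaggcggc

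Rcan2, first of 3 starts, chr17:43801102-43801351, plus strand: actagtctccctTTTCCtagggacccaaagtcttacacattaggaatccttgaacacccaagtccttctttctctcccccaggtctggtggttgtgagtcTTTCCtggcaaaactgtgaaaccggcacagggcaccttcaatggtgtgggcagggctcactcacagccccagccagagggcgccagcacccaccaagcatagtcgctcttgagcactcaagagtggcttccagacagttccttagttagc

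The window before the internal Rcan1 start held 3 matches, 1 as GGAAA and 2 as TTTCC. Of the 32851 windows of all genes, 6.39% held at least 3, and a window each of Nfatc2, Nfatc4, and Ppp3cb also held 3. The window before the distal Rcan1 start held 0 matches. Of the 3 Rcan2 windows, the one shown held 2 and the others, not shown, held 0, and 21.4% of all windows held at least 2. The Rcan3 window, also not shown, held 1 match. Sequences of 8 of the 10 genes were used, without Nfatc1 and Ppp3ca. They gave 13 windows, of which 61.5% held at least 1 match compared to 55.6% of all windows. A match is only a match of letters, and the gene-level counts cannot tell transcripts from the distal and internal starts apart.

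The libraries held between 4.09 M and 15.2 M counts (M, mega), with a median of 7.48 M. Of 10 myotube marker genes, all were tested and 9 were higher at 1 Hz and at 4 Hz than in control and 3 were higher at 10 Hz. Of all tested genes, 18.1% were higher at 1 Hz, 19.2% at 4 Hz, and 2.67% at 10 Hz. The summed level of the myotube markers ran from 8383 to 10720 TPM (transcripts-per-million) in control, at 1 Hz between 12869 and 16751 TPM, at 4 Hz between 12692 and 18511 TPM, and at 10 Hz between 8670 and 13985 TPM. Of 9 markers of cell types that the culture should lack, 8 were too low to be tested, with Ptprc, Epcam, Plin1, and Rbfox3 at 0 in at least 21 libraries, and the exception, Cd68, ran between 86.2 and 168 TPM and was not called in any comparison with control. The labels state that low-input samples were depleted of ribosomal RNA instead of being selected for poly(A), without naming them. The share of 23 small RNAs without a poly(A) tail differed with condition. As the mean and SD over 6 libraries, in CPM (counts-per-million) of the library total, it was 135 ± 25.3 for control, 30.6 ± 20.7 for 1 Hz, 28.6 ± 11.8 for 4 Hz, and 128 ± 85.5 for 10 Hz. The shares at 1 Hz and at 4 Hz did not overlap with control (2-sided exact permutation p = 0.00216, Benjamini-Hochberg adjusted p = 0.00649 over 6 pairs for each, the smallest raw p that 6 against 6 libraries can give), and 10 Hz did not differ detectably from control (exact permutation p = 0.459, adjusted p = 0.551). Shares at 10 Hz were higher than at 1 Hz (exact permutation p = 0.00649, adjusted p = 0.00974) and at 4 Hz (exact permutation p = 0.00433, adjusted p = 0.00866). The part of the myotube markers in the results for the 10 genes was not tested.

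After exercise at 1 Hz, 4 of the 9 genes tested were higher than in control, Nfatc1, Ppp3ca, Rcan1, and Rcan2, and 0 were lower. After exercise at 4 Hz, 3 were higher, Nfatc1, Ppp3ca, and Rcan2, and 1 was lower, Rcan3. After exercise at 10 Hz, 0 were higher and 1 was lower, Rcan3. A gene was called higher or lower at a Benjamini-Hochberg adjusted p below 0.05 in edgeR's quasi-likelihood test over all genes tested. By the same rule, 18.1% of all tested genes were higher and 17.3% lower at 1 Hz, 19.2% higher and 20.2% lower at 4 Hz, and 2.67% higher and 2.22% lower at 10 Hz. These shares are the background for the counts of the 9 genes, and the list itself was not tested. The median log2 fold change of the 9 genes was 0.24 at 1 Hz, 0.13 at 4 Hz, and -0.15 at 10 Hz, compared to -0.01 over all tested genes in each of the 3 comparisons, which share the control libraries.

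**Figure D1:**
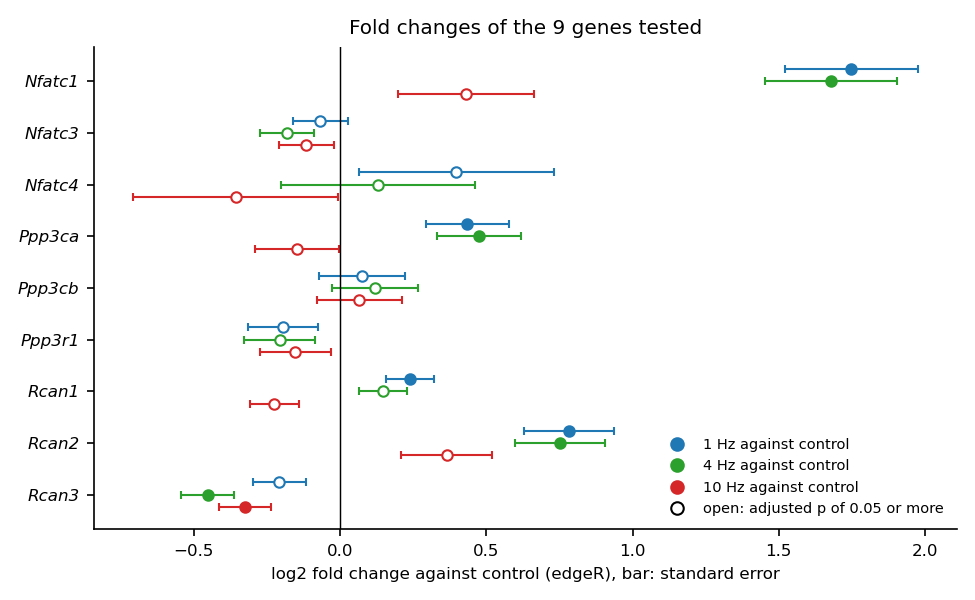
Log2 fold change against control (edgeR, x axis) of the 9 genes tested, with bars for the standard error, in blue for 1 Hz, green for 4 Hz, and red for 10 Hz, and open points for an adjusted p of 0.05 or more. Nfatc1 stands apart at 1.75 and 1.68, Rcan2 and Ppp3ca lie above 0 at 1 Hz and 4 Hz, and Rcan3 lies below 0.

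Nfatc1, on chromosome 18 (ENSMUSG00000033016), encodes the NFAT factor whose own promoter is induced by NFAT, and it showed the largest change of the 9 genes tested. Its level, in CPM scaled by the trimmed mean of M-values (TMM), ran from 10.8 to 18.7 CPM in control with a median of 15.7. At 1 Hz it ran from 27.6 to 68.6 CPM with a median of 52.0, and at 4 Hz from 28.5 to 71.6 CPM with a median of 47.2. Every library at 1 Hz and every library at 4 Hz lay above every control library, and the ratio of the mean CPM was 3.34 and 3.21. The log2 fold change was 1.75 ± 0.23 (SE, n = 6 per condition, edgeR adjusted p = 5.57e-06) at 1 Hz and 1.68 ± 0.23 (SE, edgeR adjusted p = 3.91e-06) at 4 Hz. Leaving out any 1 library kept the log2 fold change between 1.65 and 1.87 at 1 Hz and between 1.54 and 1.80 at 4 Hz.

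At 10 Hz Nfatc1 was lower than at the slower frequencies. Its CPM ran from 14.8 to 28.2 with a median of 19.5, which overlapped control, and the log2 fold change against control was 0.43 ± 0.23 (SE, edgeR adjusted p = 0.301). Against 1 Hz it was -1.32 ± 0.22 (SE, edgeR adjusted p = 5.11e-05) and against 4 Hz -1.25 ± 0.22 (SE, edgeR adjusted p = 0.000343). All 6 libraries at 10 Hz lay below all 6 libraries at 4 Hz, while the highest library at 10 Hz, at 28.2 CPM, stood just above the lowest at 1 Hz, at 27.6 CPM. Between 4 and 1 Hz the log2 fold change of Nfatc1 was -0.07 ± 0.21 (SE, edgeR adjusted p = 0.867).

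**Figure D2:**
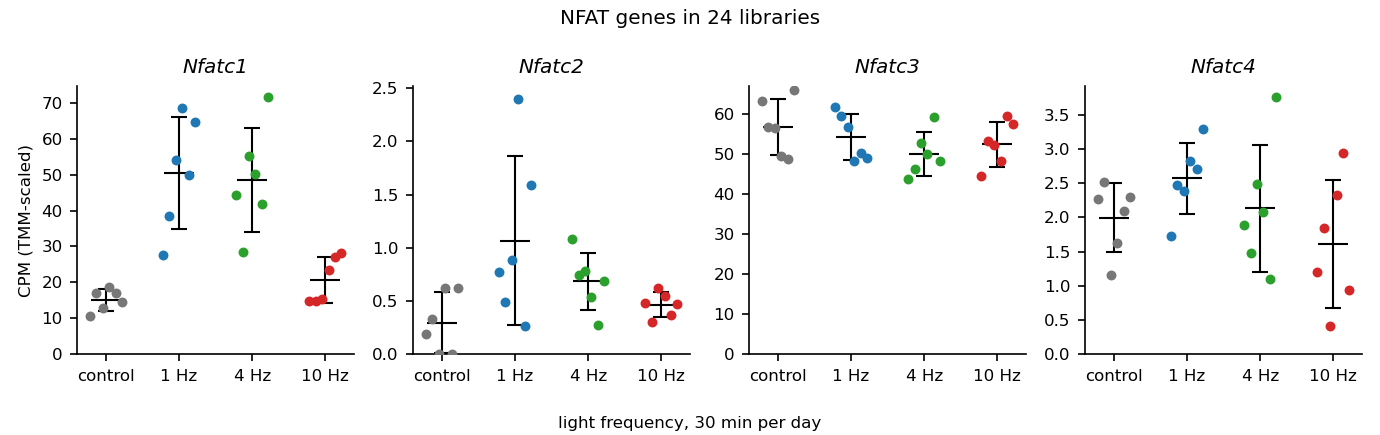
CPM (TMM-scaled, y axis, starting at 0) of the 4 NFAT genes in control and at 1, 4, and 10 Hz (x axis), with 1 point per library and bars for the mean and SD of 6 libraries. Nfatc1 at 1 Hz and 4 Hz lies above every control library, Nfatc3 stays between 43.7 and 65.9 CPM throughout, and Nfatc2 and Nfatc4 lie below 4 CPM.

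Of the other NFAT factors, Nfatc3 and Nfatc4 were tested and neither was called by edgeR with TMM in any of the 6 comparisons. Nfatc3, an NFAT factor found in developing and adult muscle, ran from 48.8 to 65.9 CPM in control, at 1 Hz between 48.4 and 61.7 CPM, at 4 Hz between 43.7 and 59.3 CPM, and at 10 Hz between 44.5 and 59.5 CPM, and all 4 ranges overlapped. Its log2 fold change against control was -0.07 ± 0.09 at 1 Hz, -0.18 ± 0.09 at 4 Hz, and -0.12 ± 0.09 at 10 Hz (SE, edgeR adjusted p = 0.603, 0.124, and 0.522). At 4 Hz Nfatc3 was lower and passed with total count scaling, at -0.28 (edgeR adjusted p = 0.0200), and with limma on log2(TPM + 1), at -0.32 (adjusted p = 0.0173). These scalings also moved the median of all genes at 4 Hz, to -0.11 and -0.16, so that relative to other genes the shift was smaller. In the GENCODE annotation of GRCm39, 17.5% of the exon bases of Nfatc3 lie opposite exons of Esrp2. The study used a directional library kit, which marks strand, but the strand setting of the counting is not given in the methods or labels, and reads from these bases are uncertain.

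Nfatc4, an NFAT factor known for its part in growth of the heart, was low in every condition. It ran from 1.16 to 2.52 CPM in control, at 1 Hz between 1.73 and 3.29 CPM, at 4 Hz between 1.09 and 3.75 CPM, and at 10 Hz between 0.417 and 2.95 CPM. The log2 fold change against control was 0.40 ± 0.33, 0.13 ± 0.33, and -0.36 ± 0.35 (SE, edgeR adjusted p = 0.368, 0.782, and 0.612), and at so few counts smaller changes were not detectable. Against 1 Hz, 10 Hz was lower by -0.75 ± 0.33 on the log2 scale and did not pass (SE, edgeR adjusted p = 0.0749), though it did without 10 Hz replicate 4 or 5 (adjusted p = 0.0467 and 0.0251). Its TPM did not follow its CPM, since control replicate 5 held 2.09 CPM and 3.87 TPM while control replicate 2 held 2.52 CPM and 1.08 TPM.

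Nfatc2, which is known for recruiting myoblasts to growing myotubes through its target interleukin 4, was close to the detection limit. The 6 control libraries together held 11 counts and 2 of them held 0, and a count of 0 allows up to 0.392 to 0.715 CPM depending on the depth of the library. The summed counts gave 0.323 CPM, without scaling, in control (exact Poisson 95% interval 0.161 to 0.578), 1.08 at 1 Hz (0.811 to 1.42), 0.658 at 4 Hz (0.461 to 0.910), and 0.488 at 10 Hz (0.313 to 0.726). These intervals cover counting error only, and those of control and 1 Hz did not overlap. Single libraries did overlap, with 0 to 0.628 CPM in control and 0.271 to 2.40 CPM at 1 Hz. Nfatc2 entered only the fit without a filter on low counts, where its log2 fold change at 1 Hz was 1.82 ± 0.57 (SE, edgeR adjusted p = 0.0213), at 4 Hz 1.15 ± 0.58 (edgeR adjusted p = 0.207), and at 10 Hz 0.62 ± 0.61 (edgeR adjusted p = 0.648). Il4 was listed at 0 in all 24 libraries.

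Of the calcineurin subunits, Ppp3ca was higher at 1 Hz and 4 Hz, and the other two did not pass the same test. Ppp3ca (ENSMUSG00000028161, GRCm39 chr3:136375445-136643491, plus strand) encodes the alpha form of the catalytic subunit. It ran from 69.1 to 90.2 CPM in control with a median of 75.9, at 1 Hz between 77.9 and 125 CPM with a median of 103, and at 4 Hz between 86.3 and 134 CPM with a median of 102. The ranges overlapped with control only through the highest control library, replicate 6 at 90.2 CPM, which exceeded 1 library at 1 Hz and 2 libraries at 4 Hz. The log2 fold change was 0.44 ± 0.14 at 1 Hz (SE, edgeR adjusted p = 0.0194) and 0.47 ± 0.14 at 4 Hz (SE, edgeR adjusted p = 0.00991). Without 1 Hz replicate 3, the deepest library of the series, the value at 1 Hz was 0.37 and no longer passed (edgeR adjusted p = 0.0545), and at 4 Hz limma on log2(TPM + 1) without a filter gave 0.39 (adjusted p = 0.0509).

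At 10 Hz Ppp3ca ran from 51.3 to 95.5 CPM with a median of 64.4, and its log2 fold change against control was -0.15 ± 0.14 (SE, edgeR adjusted p = 0.613). It was lower than at 1 Hz by -0.58 ± 0.14 on the log2 scale (SE, edgeR adjusted p = 0.0024) and than at 4 Hz by -0.62 ± 0.14 (SE, edgeR adjusted p = 0.00298). The lower 4 libraries at 10 Hz, between 51.3 and 67.5 CPM, lay below every control library, and the upper 2, replicates 5 and 6, lay within or above the control range.

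Ppp3cb, the beta form of the catalytic subunit, ran from 73.4 to 114 CPM in control and from 74.1 to 129 CPM over the 3 exercised conditions. Its log2 fold change against control was 0.07, 0.12, and 0.07 at 1, 4, and 10 Hz, each with an SE of 0.15 (edgeR adjusted p = 0.723, 0.538, and 0.853). Ppp3r1, the regulatory subunit without which the catalytic subunits are not activated, ran from 155 to 230 CPM in control and from 130 to 215 CPM over the exercised conditions. Its log2 fold change was -0.19, -0.21, and -0.15, each with an SE of 0.12 (edgeR adjusted p = 0.218, 0.178, and 0.512). Neither gene passed this test. Ppp3r1 at 4 Hz did pass with total count scaling, at -0.30 (edgeR adjusted p = 0.0457), and with limma on log2(TPM + 1), at -0.39 (adjusted p = 0.0203), where the median of all genes was also lower, as given for Nfatc3. In the annotation 13.6% of the exon bases of Ppp3r1 are shared with Dnaaf10 on the same strand.

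**Figure D3:**
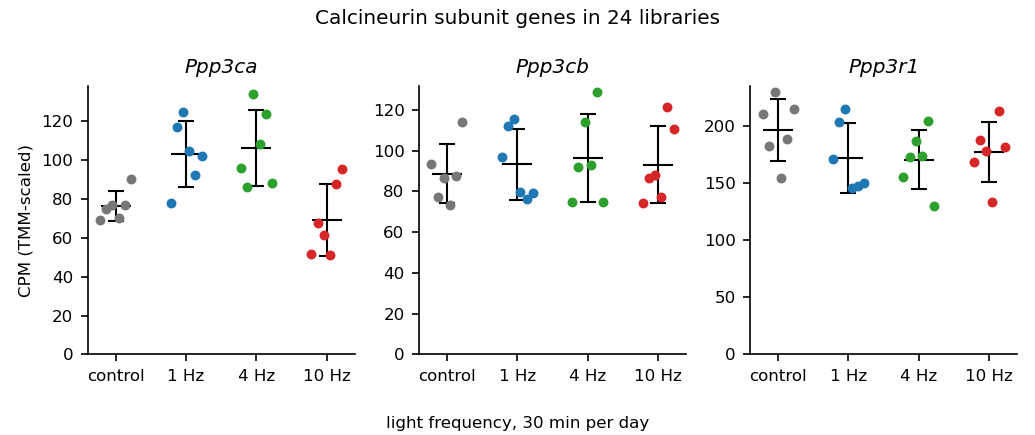
CPM (TMM-scaled, y axis, starting at 0) of the calcineurin subunit genes Ppp3ca, Ppp3cb, and Ppp3r1 in control and at 1, 4, and 10 Hz (x axis), with 1 point per library and bars for the mean and SD of 6 libraries. Ppp3ca is higher at 1 Hz and 4 Hz than in control and at 10 Hz, while the ranges of Ppp3cb and Ppp3r1 overlap throughout.

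Of the 3 Rcan genes, Rcan2 was higher at 1 Hz and 4 Hz, Rcan1 was higher at 1 Hz by a small margin, and Rcan3 was lower at 4 Hz and 10 Hz. Rcan2 (ENSMUSG00000039601, GRCm39 chr17:44112216-44350407, plus strand), a calcineurin regulator abundant in muscle, heart, and brain, ran from 8.55 to 19.5 CPM in control with a median of 10.8. It ran at 1 Hz between 18.04 and 23.4 CPM with a median of 20.6 and at 4 Hz between 17.7 and 26.2 CPM with a median of 19.3. In control, 5 of 6 libraries lay at or below 12.4 CPM and replicate 6 alone, at 19.5 CPM, overlapped with the libraries at 1 Hz and 4 Hz. The log2 fold change was 0.78 ± 0.15 (SE, edgeR adjusted p = 0.0004) at 1 Hz and 0.75 ± 0.15 (SE, edgeR adjusted p = 0.000394) at 4 Hz, and without control replicate 6 it rose to 0.96 and 0.93. At 10 Hz Rcan2 ran from 10.95 to 19.2 CPM with a median of 15.9. It was higher than control by 0.36 ± 0.16 on the log2 scale, short of the threshold (SE, edgeR adjusted p = 0.175), which became 0.54 and passed (edgeR adjusted p = 0.0225) without control replicate 6.

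Rcan1 (ENSMUSG00000022951, GRCm39 chr16:92188840-92267755, minus strand) encodes the calcineurin inhibitor that NFAT itself can induce, and its change was small beside that of Nfatc1. It ran from 43.9 to 57.0 CPM in control with a median of 46.9, at 1 Hz between 46.6 and 65.0 CPM with a median of 57.9, and at 4 Hz between 48.5 and 59.3 CPM with a median of 52.3. Both of these ranges overlapped control. The log2 fold change was 0.24 ± 0.08 at 1 Hz (SE, edgeR adjusted p = 0.0241) and 0.15 ± 0.08 at 4 Hz (SE, edgeR adjusted p = 0.152), and on the TPM scale, tested with limma, it was 0.17 at 1 Hz (adjusted p = 0.115) and -0.04 at 4 Hz (adjusted p = 0.755). On that scale the median of all genes was -0.06 at 1 Hz and -0.16 at 4 Hz. The call at 1 Hz was close to the threshold, since leaving out control replicate 1, 5, or 6 or 1 Hz replicate 4 or 6 each ended it (adjusted p between 0.0513 and 0.0735), as did total count scaling (adjusted p = 0.130) and a fit of only the 12 libraries compared (adjusted p = 0.0529). At 4 Hz the value reached 0.21 and passed (adjusted p = 0.0448) without control replicate 2.

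At 10 Hz Rcan1 was lower than at 1 Hz and 4 Hz. Its 6 libraries lay between 39.6 and 43.5 CPM with a median of 41.5. They lay below every control library, below every library at 1 Hz, and below every library at 4 Hz. Against control the log2 fold change was -0.22 ± 0.08 and did not pass (SE, edgeR adjusted p = 0.113), whereas on the TPM scale with limma it was -0.33 and passed (adjusted p = 0.0236). On that scale the median of all genes at 10 Hz was also lower, at -0.09, so that relative to other genes the shift was smaller. Against 1 Hz the log2 fold change of Rcan1 was -0.46 ± 0.08 (SE, edgeR adjusted p = 0.000105) and against 4 Hz -0.37 ± 0.08 (SE, edgeR adjusted p = 0.00216).

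Rcan3 (ENSMUSG00000059713, GRCm39 chr4:135139619-135161180, minus strand), the least studied of the calcineurin regulators, moved the other way. It ran from 21.1 to 28.0 CPM in control with a median of 24.7, at 1 Hz between 17.3 and 23.5 CPM with a median of 21.8, at 4 Hz between 15.7 and 19.2 CPM with a median of 18.3, and at 10 Hz between 16.5 and 21.7 CPM with a median of 19.9. Every library at 4 Hz lay below every control library. The log2 fold change was -0.21 ± 0.09 at 1 Hz (SE, edgeR adjusted p = 0.0741), -0.45 ± 0.09 at 4 Hz (SE, edgeR adjusted p = 0.000308), and -0.32 ± 0.09 at 10 Hz (SE, edgeR adjusted p = 0.0339). On the TPM scale with limma these were 0.12, -0.25, and -0.01 and none passed (adjusted p = 0.658, 0.310, and 0.980). The call at 10 Hz also ended without control replicate 2, 3, or 4 or 10 Hz replicate 3, 4, or 6, with adjusted p-values up to 0.119, without a filter on low counts (adjusted p = 0.207), and in a fit of only the 12 libraries compared (adjusted p = 0.0999). The value at 1 Hz passed without control replicate 5 (adjusted p = 0.0457), with total count scaling (-0.29, adjusted p = 0.0191), and among genes of at least 5 mean CPM (-0.23, adjusted p = 0.0460).

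**Figure D4:**
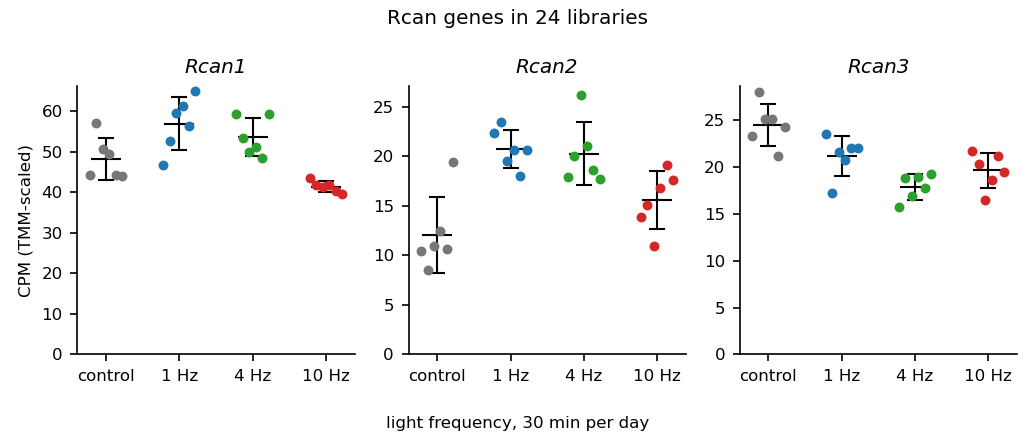
CPM (TMM-scaled, y axis, starting at 0) of Rcan1, Rcan2, and Rcan3 in control and at 1, 4, and 10 Hz (x axis), with 1 point per library and bars for the mean and SD of 6 libraries. Rcan2 is higher at 1 Hz and 4 Hz than in 5 of 6 control libraries, Rcan1 is tightly grouped between 39.6 and 43.5 CPM at 10 Hz, and Rcan3 is below every control library at 4 Hz.

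Compared directly, the exercised conditions differed at 10 Hz. At 10 Hz compared to 1 Hz, 4 of the 9 genes were lower, Nfatc1, Ppp3ca, Rcan1, and Rcan2, and 0 were higher, where 18.5% of all tested genes were lower and 17.7% higher. At 10 Hz compared to 4 Hz, 3 were lower, Nfatc1, Ppp3ca, and Rcan1, and 0 higher, where 11.9% of all tested genes were lower and 10.9% higher. Rcan2 was lower at 10 Hz than at 1 Hz by -0.42 ± 0.15 (SE, log2, edgeR adjusted p = 0.0286) and did not pass against 4 Hz at -0.39 ± 0.15 (SE, edgeR adjusted p = 0.0561). The first of these was lost without 1 Hz replicate 2 or 10 Hz replicate 1 or 3 (adjusted p up to 0.0840) and on the TPM scale with limma (-0.29, adjusted p = 0.238). The second passed in DESeq2 (-0.39, adjusted p = 0.0376) and without 4 Hz replicate 6 or 10 Hz replicate 5 or 6 (adjusted p between 0.0346 and 0.0487). Between 4 and 1 Hz, 0 of the 9 genes were called by edgeR or by DESeq2, where 5.71% of all tested genes were higher and 6.56% lower. Only Rcan3 of the 9 genes reached an unadjusted p below 0.05 there, as did 3585 of all 13318 genes tested. Its difference, -0.25 ± 0.09 on the log2 scale, did not pass (SE, edgeR adjusted p = 0.0703), except without 1 Hz replicate 2 (adjusted p = 0.0370).

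**Figure D5:**
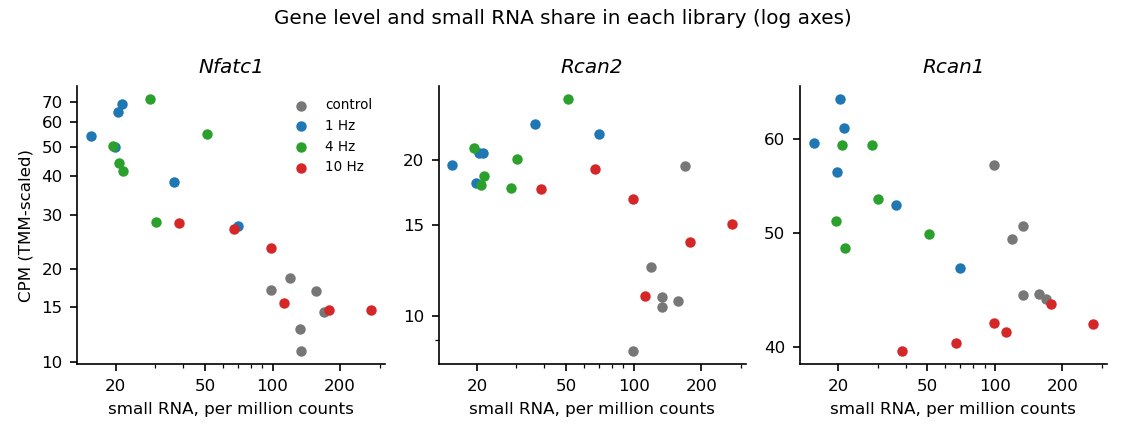
CPM (TMM-scaled, y axis, log scale) of Nfatc1, Rcan2, and Rcan1 against the share of 23 small RNAs without a poly(A) tail (CPM of the library total, x axis, log scale) in each of the 24 libraries, colored by condition. Libraries at 1 Hz and 4 Hz lie to the left of every control library, 10 Hz libraries spread from 38.4 to 274, and Rcan1 at 10 Hz lies between 39.6 and 43.5 CPM.

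The small RNA share moved with several of these results, and its values stand beside them here. Small RNA spanned 99.0 to 169 CPM for control, 15.6 to 70.2 CPM for 1 Hz, 19.5 to 51.1 CPM for 4 Hz, and 38.4 to 274 CPM for 10 Hz. Among the 10 Hz libraries, the 3 with the lowest shares, at 38.4, 67.3, and 98.9, held 28.2, 27.1, and 23.5 CPM of Nfatc1, and the 3 with the highest, at 112, 178, and 274, held 15.5, 14.8, and 14.8 CPM. At 1 Hz, replicate 1 had the highest share, at 70.2, and the lowest Nfatc1, Ppp3ca, and Rcan1. At 4 Hz, replicate 3 had the highest share, at 51.1, while its Nfatc1, at 55.1 CPM, was above the median of that condition, 47.2 CPM. Within conditions of 6 libraries the Pearson r of log2 CPM with the log2 share differed in sign. For Rcan1 it was -0.889 in control, -0.883 at 1 Hz, -0.190 at 4 Hz, and 0.797 at 10 Hz, within a range at 10 Hz of only 39.6 to 43.5 CPM. For Rcan2 it was 0.720, 0.723, 0.739, and -0.481, while across all 24 libraries it was -0.611. For Nfatc1 it was -0.270, -0.887, 0.160, and -0.887. These values are descriptions of libraries that differed in depth and whose preparation is not named library by library.

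With the log2 small RNA share as a covariate in the same edgeR fit, the log2 fold change of Nfatc1 was 0.89 at 1 Hz (adjusted p = 0.305) and 0.89 at 4 Hz (adjusted p = 0.112). That of Rcan2 was 0.90 (adjusted p = 0.208) and 0.86 (adjusted p = 0.0584), and that of Rcan3 at 4 Hz was -0.45 (adjusted p = 0.102). Ppp3ca fell to 0.08 and 0.13 (adjusted p = 0.9503 and 0.800) and Rcan1 at 1 Hz to 0.08 (adjusted p = 0.903). At 10 Hz compared to 1 Hz, Nfatc1 was -0.61 (adjusted p = 0.257), Ppp3ca -0.29 (adjusted p = 0.469), and Rcan1 -0.33 (adjusted p = 0.161). In that fit 0 of the 9 genes passed at 1 Hz or 4 Hz against control, and Rcan3 at 10 Hz kept -0.32 (adjusted p = 0.0405). How many of all tested genes passed in that fit is not given here, so the 0 is not a result about these genes. Since the share does not overlap between control and either 1 Hz or 4 Hz, the light and whatever sets the small RNA share cannot be told apart in those comparisons.

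Levels between genes were compared per length, in TPM. In control, Ppp3r1 was the highest of the 10 genes at 106 ± 12.8 TPM (SD over 6 libraries), followed by Ppp3cb at 45.8 ± 8.30, Rcan1 at 34.0 ± 4.54, Ppp3ca at 31.3 ± 2.43, and Nfatc3 at 14.4 ± 1.93 TPM. Below these came Rcan3 at 10.6 ± 3.17, Rcan2 at 5.97 ± 2.16, Nfatc1 at 5.02 ± 1.13, Nfatc4 at 1.70 ± 1.46, and Nfatc2 at 0.106 ± 0.109 TPM. Ranges of neighbors did not overlap between Ppp3r1 and Ppp3cb, Ppp3ca and Nfatc3, or Nfatc4 and Nfatc2, and all other neighbors in this order overlapped. Among the 10 genes, the calcineurin subunits thus exceeded the NFAT factors in control. Ppp3cc, a catalytic calcineurin gene outside the 10, ran between 10.8 and 18.2 TPM over all 24 libraries, which reaches the level of Nfatc3.

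Nfatc1 stood at rank 8 in control and at 10 Hz and at rank 5 at 1 Hz and 4 Hz. At 1 Hz it reached 15.7 ± 4.35 TPM and at 4 Hz 13.8 ± 3.80 TPM (SD over 6 libraries), and its mean stood above that of Nfatc3, at 13.4 ± 1.52 and 11.4 ± 1.38 TPM, although the ranges overlapped. The TPM of Nfatc1 relative to Nfatc3 was 0.355 ± 0.102 in control, 1.21 ± 0.445 at 1 Hz, 1.23 ± 0.392 at 4 Hz, and 0.504 ± 0.124 at 10 Hz (SD over 6 libraries), and it exceeded 1 in 0, 4, 4, and 0 of 6 libraries. Of the summed TPM of the 4 NFAT genes, Nfatc1 made up 23.7% ± 5.1 in control, 50.5% ± 9.7 at 1 Hz, 51.4% ± 7.3 at 4 Hz, and 31.2% ± 5.7 at 10 Hz (SD over 6 libraries). The lowest share at 1 Hz, 34.8%, was above the highest in control, 31.4%.

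The other families were described in the same way. Of the catalytic calcineurin genes Ppp3ca, Ppp3cb, and Ppp3cc, Ppp3ca made up 34.0% ± 2.7 of the summed TPM in control, 42.4% ± 4.6 at 1 Hz, 42.2% ± 4.1 at 4 Hz, and 32.7% ± 2.6 at 10 Hz (SD over 6 libraries). The sum of these catalytic genes was 92.6 ± 10.0 TPM in control, 106 ± 15.4 at 1 Hz, 99.1 ± 14.5 at 4 Hz, and 85.7 ± 19.0 at 10 Hz, with overlapping ranges. Rcan1 made up most of the Rcan TPM in every condition, from 58.7% ± 5.2 at 10 Hz to 67.3% ± 4.9 in control. The TPM of Rcan1 relative to Rcan2 was 6.21 ± 2.05 in control, 3.73 ± 0.885 at 1 Hz, 3.48 ± 0.891 at 4 Hz, and 3.34 ± 1.18 at 10 Hz (SD over 6 libraries). These ratios are descriptions and were not tested.

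Around the 10 genes, the rest of the route was looked at by list, each to be read against the shares of all tested genes called higher and lower, 18.1% and 17.3% at 1 Hz, 19.2% and 20.2% at 4 Hz, and 2.67% and 2.22% at 10 Hz. Of 11 other calcineurin subunits and anchoring proteins, 8 were tested, and 3 were higher and 0 lower at 1 Hz, 4 higher and 1 lower at 4 Hz, and 2 higher and 0 lower at 10 Hz. The largest rises were those of Myoz2, a Z-disc protein that binds calcineurin, at 0.70 and 0.95 on the log2 scale at 1 and 4 Hz (edgeR adjusted p = 1.91e-05 and 2.95e-07), and Akap6, an anchoring protein of the nuclear envelope of muscle cells, at 0.77 and 0.57 (edgeR adjusted p = 3.25e-06 and 4e-05). Fkbp1a, which binds the calcineurin inhibitor FK506, fell by 0.17 on the log2 scale at 4 Hz (edgeR adjusted p = 0.0219). The third catalytic gene, Ppp3cc, was 0.09 ± 0.10 and 0.19 ± 0.10 (SE, edgeR adjusted p = 0.487 and 0.123).

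Of 15 kinases and export regulators of NFAT, 13 were tested, with 1 higher and 2 lower at 1 Hz, 0 higher and 3 lower at 4 Hz, and 0 called at 10 Hz by edgeR. The counts at 1 Hz, and that of higher genes at 4 Hz, were at or below the shares of all tested genes. Dyrk1a, a kinase that primes NFAT for export, was higher at 1 Hz by 0.25 ± 0.08 (SE, log2, edgeR adjusted p = 0.0171). Xpo1, the exportin that carries NFAT out of the nucleus, was lower by -0.60 ± 0.16 and -0.51 ± 0.16 at 1 and 4 Hz (SE, edgeR adjusted p = 0.00442 and 0.0117), and Lrrk2, a kinase reported to hold NFAT in the cytoplasm, by -0.51 ± 0.15 and -0.65 ± 0.15 (SE, edgeR adjusted p = 0.00968 and 0.00117). Nfat5, an NFAT relative that does not depend on calcineurin, was 0.11 ± 0.16 and 0.09 ± 0.16 (SE, edgeR adjusted p = 0.635 and 0.682).

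Downstream, 8 other transcription factors or coactivators regulated through calcineurin were all tested, and 7 were higher at 1 Hz, 3 at 4 Hz, and 1 at 10 Hz, with 0 lower in each. Crtc1, a coactivator of CREB, rose by 0.78 and 0.94 on the log2 scale at 1 and 4 Hz (edgeR adjusted p = 0.000162 and 1.15e-05), and Mef2c, a muscle transcription factor, by 0.82 and 0.90 (edgeR adjusted p = 0.000664 and 0.000209). Of 8 slow fiber genes, 7 were tested and 6 were higher at 1 Hz, 6 at 4 Hz, and 1 at 10 Hz, led by Myh7, the slow myosin heavy chain, at 1.21 and 1.13 (edgeR adjusted p = 7.55e-05 and 0.000101), and Myl2, its regulatory light chain, at 0.92 and 1.53 (edgeR adjusted p = 0.00408 and 1.68e-05). Fast fiber genes rose alongside, 7 of 8 at 1 Hz, 8 at 4 Hz, and 3 at 10 Hz, led by Myh1, a fast myosin heavy chain, at 1.21 and 1.09 (edgeR adjusted p = 0.000164 and 0.000308), and Tnni2, the fast troponin I, at 0.75 and 1.23 (edgeR adjusted p = 0.000134 and 3.05e-07). The median log2 fold change was 0.59 and 0.95 for the slow genes and 0.75 and 0.85 for the fast genes at 1 and 4 Hz.

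Of 10 genes known as NFAT targets in other cells or in muscle, 6 were tested, and 2 were higher at 1 Hz, 2 higher and 1 lower at 4 Hz, and 1 higher at 10 Hz. The 1 lower gene at 4 Hz is near the share of all tested genes, 20.2%. Cxcl12, a chemokine, rose by 1.16 and 0.80 on the log2 scale at 1 and 4 Hz (edgeR adjusted p = 1.04e-05 and 0.000315) and Vegfa, an angiogenic factor, by 0.65 and 0.71 (edgeR adjusted p = 0.000337 and 0.000101). Myf5, a factor of muscle precursor cells, was lower at 4 Hz at -0.61 ± 0.18 (SE, edgeR adjusted p = 0.00879). The 1 gene higher at 10 Hz was Il6, a cytokine, at a mean of 5.66 CPM compared to 2.21 CPM in control, higher by 1.39 ± 0.32 on the log2 scale (SE, edgeR adjusted p = 0.0123), named after its values were seen.

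For each gene tested, the genes with the most similar pattern were found by Pearson correlation of log2 CPM over the 24 libraries, among 9058 genes with a mean of at least 10 CPM. Condition and composition differed between the libraries, so these values are descriptions. Nfatc1 was most like Ets2 (r = 0.964) and Creb3l1 (r = 0.963), and after subtracting the condition means the values were 0.883 and 0.893. Ppp3ca was most like Cacna2d1, a subunit of the muscle calcium channel (r = 0.947), and Phkb, a phosphorylase kinase subunit (r = 0.918). Rcan1 was most like Plod1 (r = 0.907) and Htra1 (r = 0.904), and Rcan2 most like Inhbb (r = 0.900) and Tceal7 (r = 0.884). Rcan3 was most like Slc22a5 (r = 0.868) and Ptdss1 (r = 0.852). Ppp3cb was most like Kif5b (r = 0.957) and Qki (r = 0.942), and Ppp3r1 most like Dnajb4 (r = 0.953) and Tmed7 (r = 0.948). Nfatc3 was most like Hs2st1 (r = 0.881) and Smchd1 (r = 0.871), and Nfatc4, the lowest of those tested, most like Col1a1 (r = 0.794) and Hspa12a (r = 0.757).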

How the data were processed

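RNA-seq libraries of 24 muscle tissues were grouped by the sample titles. The authors sequenced them as paired-end reads and processed them with the nf-core/rnaseq pipeline and salmon on the GRCm39 genome with Ensembl gene models, whose release no source used here gives. The authors deposited salmon estimated counts per gene and a second table with TPM, which salmon sets to a constant sum in each library. Estimated counts were rounded to whole numbers, filtered with filterByExpr by condition (13318 genes), scaled by TMM, and fitted with edgeR 4.0.16 (glmQLFit and glmQLFTest, R 4.3.3) in 1 fit with condition as the only factor, from which the 6 comparisons were tested. The study used DESeq2 with a fold threshold. DESeq2 1.42.0, that threshold, limma 3.58.1 on log2(TPM + 1) and log2(TPM + 0.1), which understates changes of low genes, other scalings and filters, the replicate number as a block, the small RNA share, and leaving out each library were alternatives. Total counts limit precision, and Poisson intervals cover counting error only. Small RNA shares were compared with 2-sided exact permutation tests. Of each gene list, the 2 largest rises and the 2 largest falls among genes called at 1 or 4 Hz are named. The members and lists were chosen with earlier results of these data known. Fits were tested on simulated data. Promoters came from RefSeq on GRCm38.p6 and positions from GENCODE M39 on GRCm39, which are not interchangeable. The result of 1 gene list is not reported here.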

Additional observations from a re-analysis of the deposited data

Results flagged for a closer look

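Of 40 groups of 6 libraries looked at, 4 conditions for each of the 10 genes, 1 held a library far from the others, where chance alone would give about 1 in 20. Rcan2 in control replicate 6 stood at 19.5 CPM, its nearest neighbor at 12.4 CPM and the lowest control library at 8.55 CPM, so that the gap took up 0.647 of the range (Dixon's critical value 0.625 for 6 libraries). The same library had the highest control level of Ppp3ca, Ppp3cb, and Nfatc3, at 90.2, 114, and 65.9 CPM, and the highest small RNA share in control, at 169 CPM. Its part in the Rcan2 results is given by the values without it.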

How the results depend on the processing

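Over 23 alternatives, Nfatc1 and Rcan2 kept their calls at 1 Hz and 4 Hz in 22, the exception being the fit with the small RNA share. With that share as a covariate the number of genes called became 0 at 1 Hz and at 4 Hz against control, 0 at 10 Hz against 1 Hz, and 0 at 10 Hz against 4 Hz, and control and 1 Hz or 4 Hz do not overlap in it. With the study's added rule of a log2 fold change above 0.5 the number became 2 at 1 Hz and 2 at 4 Hz. It became 0 at 10 Hz against control and 2 at 10 Hz against 1 Hz. Of all 13318 genes tested, that rule called 1244 higher and 1197 lower at 1 Hz, and 1396 higher and 1280 lower at 4 Hz. At 10 Hz it called 165 higher and 83 lower against control, and 1259 higher and 1131 lower against 1 Hz. The number of the 9 genes called at 10 Hz against control was also 0 without a filter on low counts. It was 0 as well when only the 12 libraries compared were fitted. Leaving out 1 library at a time gave 3 to 4 genes at 1 Hz, 4 to 5 at 4 Hz, 3 to 5 at 10 Hz against 1 Hz, and 3 to 4 at 10 Hz against 4 Hz. It gave 0 to 2 at 10 Hz against control, with 0 when control replicate 2, 3, or 4 or 10 Hz replicate 3, 4, or 6 was left out and 2 without control replicate 6. It gave 0 to 1 at 4 Hz against 1 Hz, with 1, Rcan3, without 1 Hz replicate 2. Apart from the added fold rule, how many of all tested genes were called under these alternatives is not given. The counts under them are not results about these genes. The causes of the changes in number were not tested.

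Signs that turned belonged to values that were not called. With limma on log2(TPM + 1), log2(TPM + 0.1), and log2(TPM + 1) without a filter, in this order, the log2 fold change against control of Nfatc4 was -0.13, -0.071, and -0.13 at 1 Hz and -0.24, -0.34, and -0.24 at 4 Hz. That of Ppp3cb was -0.018, -0.019, and -0.018 at 1 Hz, -0.14, -0.15, and -0.14 at 4 Hz, and -0.087, -0.089, and -0.087 at 10 Hz. That of Rcan3 was 0.12, 0.14, and 0.12 at 1 Hz, and that of Rcan1 was -0.037, -0.038, and -0.037 at 4 Hz. At 4 Hz against 1 Hz, Ppp3ca was -0.10 in each and Ppp3cb -0.13 in each, and at 10 Hz against 4 Hz Ppp3cb was 0.058, 0.059, and 0.058. With limma on log2(TPM + 1), the median of all genes was -0.06, -0.16, and -0.09 at 1, 4, and 10 Hz against control. That median was -0.10 at 4 Hz against 1 Hz and 0.08 at 10 Hz against 4 Hz. With the small RNA covariate, Ppp3cb was -0.016 at 1 Hz, 0.066 at 10 Hz against 1 Hz, and 0.018 at 10 Hz against 4 Hz, Rcan1 was -0.0019 at 4 Hz, and Nfatc1 was 0.00094 at 4 Hz against 1 Hz. With total count scaling, Ppp3cb was 0.033 at 10 Hz against 1 Hz and 0.0062 at 10 Hz against 4 Hz, and with genes of at least 5 mean CPM it was 0.026 at 10 Hz against 1 Hz. Ppp3r1 at 4 Hz against 1 Hz was 0.012 with that filter and 1.54e-05 with only the 12 libraries.

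Leaving out 1 library turned the sign of these log2 fold changes, given as lowest and highest. At 4 Hz against control Nfatc4 ran from -0.11 to 0.26, and at 10 Hz against control Ppp3cb from -0.021 to 0.15. At 4 Hz against 1 Hz, Nfatc1 ran from -0.21 to 0.047, Ppp3ca from -0.038 to 0.10, Ppp3cb from -0.051 to 0.12, Ppp3r1 from -0.067 to 0.064, and Rcan2 from -0.12 to 0.015. At 10 Hz against 1 Hz, Ppp3cb ran from -0.097 to 0.065 and Ppp3r1 from -0.017 to 0.12, and at 10 Hz against 4 Hz Ppp3cb ran from -0.14 to 0.037 and Ppp3r1 from -0.027 to 0.12. The log2 difference in small RNA between 4 Hz and 1 Hz was 0.03, ran from -0.16 to 0.31 without 1 library, and was -0.10 without Rn7sk.

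With the replicate number as a replicate block, 4 genes were called at 1 Hz, 4 at 4 Hz, and 1 at 10 Hz. Between exercised conditions, 0 were called at 4 Hz against 1 Hz, 4 at 10 Hz against 1 Hz, and 3 at 10 Hz against 4 Hz. These were the same numbers as without the block. How many of all tested genes were called with the block is not given, so these counts are not results about the genes followed. Deviations of libraries with the same number had correlations from -0.184 to 0.362 over 36 pairs, with a median of 0.0173. Over 180 pairs with different numbers they ran from -0.320 to 0.361, with a median of -0.0130. For 5 of 24 libraries, the mean correlation was highest with the libraries of their own number. The number was treated as a name. Depth limits Nfatc2 and Nfatc4 most.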

Other observations

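Within conditions, the calcineurin subunit genes were correlated with each other. After subtracting the condition means, log2 CPM of Ppp3cb and Ppp3r1 had a Pearson r of 0.842 over the 24 libraries, Ppp3cb and Nfatc3 0.847, Ppp3ca and Ppp3cb 0.754, Nfatc3 and Ppp3r1 0.696, and Ppp3ca and Ppp3r1 0.620. Outside the list, Kif5b reached 0.970 with Ppp3cb, Tmed7 0.963 with Ppp3r1, and Cacna2d1 0.931 with Ppp3ca. These genes were picked from 9058 for their high correlation, so their higher values follow from the choice. Correlations with other genes in general are not given. Nfatc1 correlated less with the calcineurin subunit genes within conditions, at 0.421 with Ppp3ca, -0.0865 with Ppp3cb, and -0.363 with Ppp3r1. Rcan1 ran against Ppp3cb at -0.626 and against Nfatc3 at -0.588. The libraries differed in depth and composition, and their preparation is not named library by library. These values are descriptions with no test.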
